A study of Mus musculus with 2 samples.

Results

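The 10 genes described here encode enzymes of glycolysis: Hk1, Hk2, Gpi1, Pfkl, Aldoa, Tpi1, Gapdh, Pgk1, Eno1 and Pkm. They were taken as a fixed list of gene symbols, and all 10 had at least 1 ID in both count files. They are 10 of 20326 protein-coding genes, and of 53530 genes of any kind, in which at least 1 ID was placed. Polyadenylated RNA of differentiated female germline stem cells (FGSCs) of CD-1 mice was sequenced after Smart-seq2 amplification in 2 libraries, which form 1 group, so the design holds no comparison between conditions. FGSCs are ovarian germ cells kept in culture, and these were treated with retinoic acid at 10 µM and bone morphogenetic protein 4 at 10 ng/mL for 3 days on a layer of granulosa cells, without GDNF, EGF and LIF. Both libraries shared strain, sex, treatment and time, and the label gives their stage as premeiotic interphase. Each library was made from a few cells, and nothing in the labels says that replicate 1 and replicate 2 came from separate cultures.

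Glycolysis splits glucose into pyruvate in the cytosol and yields ATP and NADH on the way. Hexokinase traps glucose in the cell, phosphofructokinase is the step most tightly controlled, and phosphoglycerate kinase and pyruvate kinase make the ATP. Granulosa cells are known for active glycolysis and for passing pyruvate to the oocyte, which uses glucose poorly by itself. Several of these genes, Gapdh above all, are used as reference genes because most cells transcribe them strongly, and their mRNAs have left many reverse-transcribed copies (processed pseudogenes) in the mouse genome.

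The count files list reads per ID, not per gene, and an ID is either an Ensembl transcript or a UniProt protein accession. Which gene an accession belongs to, and which transcripts it stands for, was inferred from its place in the file (see the methods). Sums per gene that rest on accessions are therefore inferred too. Sequences of 3 kinds carry the results and are shown first, all from the GRCm38 (mm10) annotation of GENCODE M21. The first set is coding sequence that 1 ID alone holds in the genes with most counts, on which a read can be given to that ID. These are an exon of Pkm at chr9:59678044-59678225 (plus strand, 182 bases, all coding) and an exon of Pfkl at chr10:77990142-77990306 (minus strand, 165 bases, all coding).
Pkm-201 and Pkm-202, shared exon: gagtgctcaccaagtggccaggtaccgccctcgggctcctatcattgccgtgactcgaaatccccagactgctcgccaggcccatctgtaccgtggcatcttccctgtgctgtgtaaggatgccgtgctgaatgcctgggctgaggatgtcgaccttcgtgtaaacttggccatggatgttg
Pfkl-201, exon: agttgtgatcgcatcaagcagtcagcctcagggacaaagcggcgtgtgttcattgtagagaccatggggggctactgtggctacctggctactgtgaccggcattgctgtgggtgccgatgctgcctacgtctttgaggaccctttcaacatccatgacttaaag

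The second set is the pair of mutually exclusive Pkm exons, of which a transcript holds 1 or the other. Pkm-202 holds the upstream exon (chr9:59675029-59675195, known from the M1 form of the enzyme, typical of muscle and brain) and Pkm-201 the downstream exon (chr9:59675568-59675734, known from the M2 form, typical of proliferating cells). Each has 167 bases, and 103 of them (61.7%) are alike. Capitals mark the 64 bases that differ.
Pkm-202, upstream exon: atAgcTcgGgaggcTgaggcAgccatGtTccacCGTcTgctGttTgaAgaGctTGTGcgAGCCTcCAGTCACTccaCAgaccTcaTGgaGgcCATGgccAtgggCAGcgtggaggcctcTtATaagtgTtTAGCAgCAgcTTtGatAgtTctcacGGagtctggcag
Pkm-201, downstream exon: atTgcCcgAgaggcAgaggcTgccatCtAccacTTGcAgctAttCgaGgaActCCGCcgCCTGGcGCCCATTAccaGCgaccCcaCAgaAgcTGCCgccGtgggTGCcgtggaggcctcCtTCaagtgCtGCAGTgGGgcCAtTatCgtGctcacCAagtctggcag
Both transcripts were placed under 1 accession (P52480), so the counts do not tell the M1 form from the M2 form, and neither exon holds a base that belongs to a single ID.

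The third set is Gapdh beside the pseudogene Gm13394, which held more counts than any ID of Gapdh. The 1000 bases of Gm13394 (chromosome 2, minus strand) align without a gap to Gapdh-201 and differ from it at 1 base. That substitution is A438C (Gapdh-201's base first, its position counted from 1 at the first base of the transcript, then the base of Gm13394), and it lies in coding sequence. The capital marks it in 101 bases of each. The stretch of Gapdh-201 is spliced from the exons between chr6:125162966 and chr6:125163164 (minus strand), and that of Gm13394 is chr2:28934214-28934314 (minus strand).
Gapdh-201: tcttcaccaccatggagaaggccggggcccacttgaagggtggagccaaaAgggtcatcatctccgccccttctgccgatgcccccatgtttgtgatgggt
Gm13394: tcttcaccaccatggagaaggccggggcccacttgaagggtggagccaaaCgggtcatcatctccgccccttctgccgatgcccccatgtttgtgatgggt

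Replicate 1 held 1517151 counts and replicate 2 held 12442, so that 1 count stood for 0.659 CPM (counts scaled to a library total of 1000000) in the first and 80.4 CPM in the second. The smallest level taken as shown, 3 counts, was therefore 1.98 CPM in replicate 1 and 241 CPM in replicate 2. A gene without a count was below that level in counted reads only, since reads on shared exons can be left uncounted. The labelled cell type was checked against its markers. Of 10 germ cell markers, Kit held 1 count in replicate 1. The other 9 (Ddx4, Dazl, Pou5f1, Stra8, Sycp3, Gdf9, Zp3, Nobox and Figla) held none in either library, although Sycp3 and Zp3 had no exonic base of a single ID. In differentiated FGSCs the paper reports Stra8 and Sycp3 by RT-PCR, and Stra8 also by immunofluorescence. Granulosa cell markers held 711 counts in replicate 1 and 4 in replicate 2, with Kitl (453 in replicate 1) and Fst (229) leading and Foxl2, Amh, Inhbb and Cyp19a1 at 0 in both. Fibroblast markers, which the feeder cells used to maintain FGSCs would also express, held 4381 and 18 counts. Of those 10 markers, 5 reached 3 counts in replicate 1, led by Dcn (2281), while Thy1, Fn1 and Vim held 1 count each there, Postn held 2 and Lum held none in either library. In replicate 2, 3 of the 10 reached 3 counts. Of all protein-coding genes 31.9% reached 3 counts in replicate 1 and 3.73% in replicate 2. The part of such cells in the counts below was not tested, and in bulk RNA fewer cells of a type and less RNA per cell cannot be told apart.

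The 10 genes together held 6253 counts in replicate 1, which is 0.412% of the library (95% Wilson interval 0.402% to 0.422%). In replicate 2 they held 4 counts, or 0.0321% (0.0125% to 0.0826%). The mean over both libraries was 0.222% ± 0.269 (SD, n = 2). At the share of replicate 1, replicate 2 would have held 51.3 counts on these genes, and the intervals of both shares do not overlap. These intervals cover counting error only, since amplified reads without molecular identifiers are not independent molecules. Pkm alone made up 86.9% of the members' counts in replicate 1, and the other 9 genes held 822 counts. Without Pkm the share was 0.0542% (0.0506% to 0.0580%) in replicate 1 and 0.0161% (0.00441% to 0.0586%) in replicate 2. Those 2 intervals overlap.

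In replicate 1, 6 members had at least 3 counts: Hk2 with 304, Gpi1 with 53, Pfkl with 429, Tpi1 with 11, Gapdh with 22 and Pkm with 5431. Of all 20326 protein-coding genes 31.9% reached 3 counts in that library. Hk1, Aldoa and Eno1 held 1 count each and Pgk1 held 0. In replicate 2 Pkm held 2 counts, Hk2 and Pfkl held 1 each, and the other 7 members held 0. None of the 10 reached 3 counts there, where 3.73% of protein-coding genes did. The same 6 members had at least 10 counts, which 25.7% of protein-coding genes reached in replicate 1 and 0.6% in replicate 2. At least 1 count was held by 9 members in replicate 1 and 3 in replicate 2, beside 42.6% and 12.5% of protein-coding genes. The median over the 10 members was 16.5 counts in replicate 1, beside a median of 0 and an upper quartile of 11 over all protein-coding genes.

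**Figure D1:**
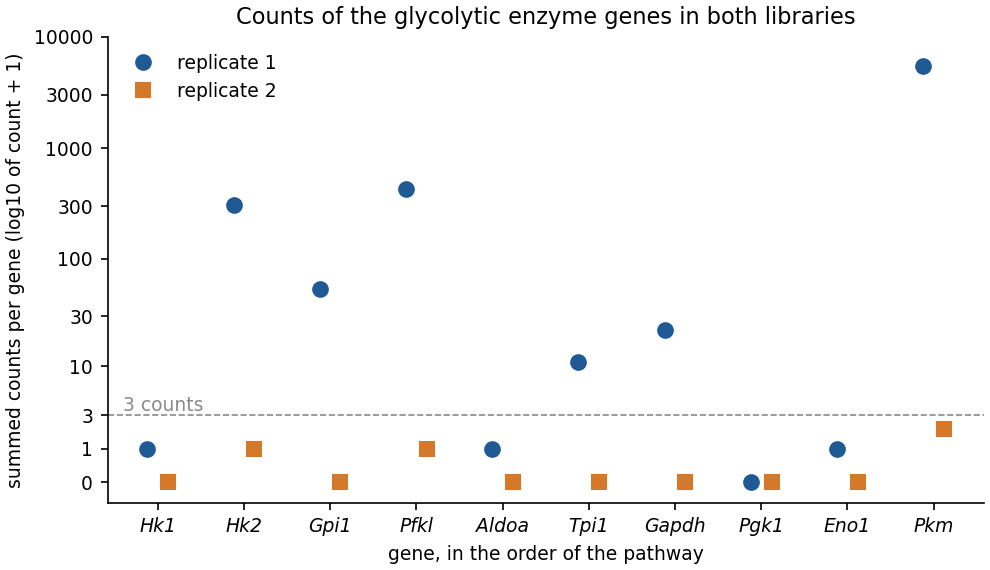
Summed counts of each gene (y axis, log10 of the count plus 1) in replicate 1 (circles) and replicate 2 (squares), with genes in pathway order on the x axis and the level of 3 counts as a dashed line. In replicate 1 the genes run from 0 counts (Pgk1) to 5431 (Pkm), and in replicate 2 no gene is above 2 counts.

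Hexokinase phosphorylates glucose, the first step. Hk1 (chromosome 10, 62268855 to 62379908, minus strand), the form found in most tissues, was listed under 10 IDs, and 3840 of its 8532 exonic bases (45.0%) were annotated to 1 transcript only. Its single count in replicate 1 fell on Q6GQU1, the accession of Hk1-202. P17710, which stands for Hk1-201 and Hk1-203, had 125 bases of its own, in runs of at most 69, and no count. Hk2 (chromosome 6, 82725025 to 82774454, minus strand), a form induced in many proliferating cells, held 304 counts in replicate 1 and 1 in replicate 2. All of them fell on O08528, the accession of Hk2-201, which had 2228 bases of its own in runs of up to 1000. The other 3 IDs of Hk2 held none. Of the 5969 exonic bases of Hk2, 2684 (45.0%) belonged to 1 transcript, a share close to that of Hk1.

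Glucose-6-phosphate isomerase, encoded by Gpi1 (chromosome 7, 34201330 to 34230336, minus strand), turns glucose-6-phosphate into fructose-6-phosphate. Its 53 counts in replicate 1 were spread over 3 of 11 IDs. The retained-intron transcript Gpi1-211 (ENSMUST00000206603.1) held 30, P06745 (Gpi1-201, the full coding transcript) held 14, and the retained-intron transcript Gpi1-203 (ENSMUST00000135243.2) held 9. Of the 53 counts of Gpi1, 39 were thus on transcripts that retain an intron. Of 6452 exonic bases, 4059 (62.9%) belonged to 1 transcript, and replicate 2 had no count.

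Phosphofructokinase commits the sugar to glycolysis, and Pfkl (chromosome 10, 77986947 to 78010083, minus strand) encodes its liver form. P12382, the accession of Pfkl-201, held 422 of its 429 counts in replicate 1 and its single count in replicate 2. The retained-intron transcript Pfkl-208 (ENSMUST00000220304.1) held the other 7. Pfkl had the highest share of single-transcript sequence among the members: 5289 of 6675 exonic bases (79.2%). The coding exon printed above is 1 of several coding stretches that P12382 held alone, of its 2522 own bases in all.

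Aldolase A cleaves fructose bisphosphate, and Tpi1 interconverts the 2 triose phosphates that result. Aldoa (chromosome 7, 126795234 to 126800751, minus strand) held 1 count in replicate 1, on the retained-intron transcript Aldoa-206 (ENSMUST00000139657.7), and none in replicate 2. Its main coding accession Q5FWB7 (Aldoa-201 and Aldoa-203) had 175 bases of its own in runs of at most 89, and no count. Only 953 of 2911 exonic bases (32.7%) belonged to 1 transcript. A second Aldoa gene model in the annotation held 0 counts in both libraries. Tpi1 (chromosome 6, 124810586 to 124814296, minus strand) held 11 counts in replicate 1, of which 7 were on the retained-intron transcript Tpi1-206 (ENSMUST00000204602.1) and 4 on H7BXC3 (Tpi1-203). P17751 (Tpi1-205), the accession of the full-length enzyme, held none and had 139 bases of its own. Of 2753 exonic bases, 1284 (46.6%) belonged to 1 transcript.

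Glyceraldehyde-3-phosphate dehydrogenase makes the NADH of the pathway. Gapdh (chromosome 6, 125161715 to 125166467, minus strand) held 22 counts in replicate 1 and 0 in replicate 2. The retained-intron transcript Gapdh-213 (ENSMUST00000192506.1) took 21 of them, and S4R1N5 (Gapdh-209) took 1. The 3 longest coding transcripts were listed under different accessions, A0A0A0MQF6 for Gapdh-202 and P16858 for Gapdh-201 and Gapdh-203, and both accessions held 0 counts. A0A0A0MQF6 had no base of its own, and P16858 had 168, all in the first exon of Gapdh-203. Of 4133 exonic bases, 2001 (48.4%) belonged to 1 transcript, most of them in introns of the coding transcripts that Gapdh-213 retains.

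The study used Gapdh as the internal control of its RT-PCR, and its primers lie on the same shared sequence. In the forward primer, capitals mark the bases that lie in the next exon after a splice junction.
Gapdh forward primer: tcaggagagtgtttCCTCGTC
Gapdh reverse primer: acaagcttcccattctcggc
The forward primer spans chr6:125165305 to 125166407 across an intron and matched 2 transcripts, Gapdh-201 and Gapdh-202. The reverse primer (chr6:125163263-125163282) matched 9 transcripts of Gapdh. Among transcripts of other genes, none held the whole forward primer, while 102, of 97 genes and Gm13394 among them, held the reverse primer site. The product of 229 bases had 0 bases that belonged to 1 transcript, and each of its bases was held by 2 to 9 IDs.

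Phosphoglycerate kinase makes the first ATP. Pgk1 (chromosome X, 106187100 to 106203699, plus strand) held 0 counts in both libraries. The upper ends of its Wilson intervals were 2.53 CPM in replicate 1 and 308.7 CPM in replicate 2. These limits apply to counted reads only and do not bound the RNA of Pgk1, since reads on shared sequence can be left uncounted. Pgk1 had the lowest share of single-transcript sequence: 520 of 2244 exonic bases (23.2%), and 379 of these were in the retained-intron transcript Pgk1-202. P09411 (Pgk1-201), the accession of the full-length enzyme, had 101 own bases in runs of at most 63.

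Enolase forms phosphoenolpyruvate. Eno1 (chromosome 4, 150236721 to 150248879, plus strand) held 1 count in replicate 1, on the retained-intron transcript Eno1-207 (ENSMUST00000136310.1), and 0 in replicate 2. A further 290 counts in replicate 1, and 1 in replicate 2, fell on Q5FW97, whose protein sequence is encoded alike by Eno1-202 and by Eno1b, a closely related gene on chromosome 18. These counts could be of either gene and were not added to Eno1. Of the 31-base stretches of Eno1-202, 71.4% also occurred in Eno1b-201. Of 5379 exonic bases of Eno1, 3587 (66.7%) belonged to 1 transcript, 294 of them to Eno1-202. On the side of Eno1b, all 1877 exonic bases belonged to 1 ID, in runs of up to 1766. From which gene the 290 counts came was not tested.

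Pyruvate kinase makes pyruvate and the last ATP of the pathway. Pkm (chromosome 9, 59656368 to 59679375, plus strand) held 5431 counts in replicate 1, rank 14 of 20326 protein-coding genes by summed count, and 2 in replicate 2. P52480 took 5377 of them and both of those in replicate 2, and the retained-intron transcript Pkm-205 (ENSMUST00000214571.1) took 54. The other 8 IDs held none. P52480 had 1038 bases of its own, among them the whole of the coding exon shown above, which Pkm-201 and Pkm-202 share. Of 5001 exonic bases, 2327 (46.5%) belonged to 1 transcript, and 2974 (59.5%) to 1 ID. In replicate 2, 44.5 counts would have matched the share of replicate 1.

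**Figure D2:**
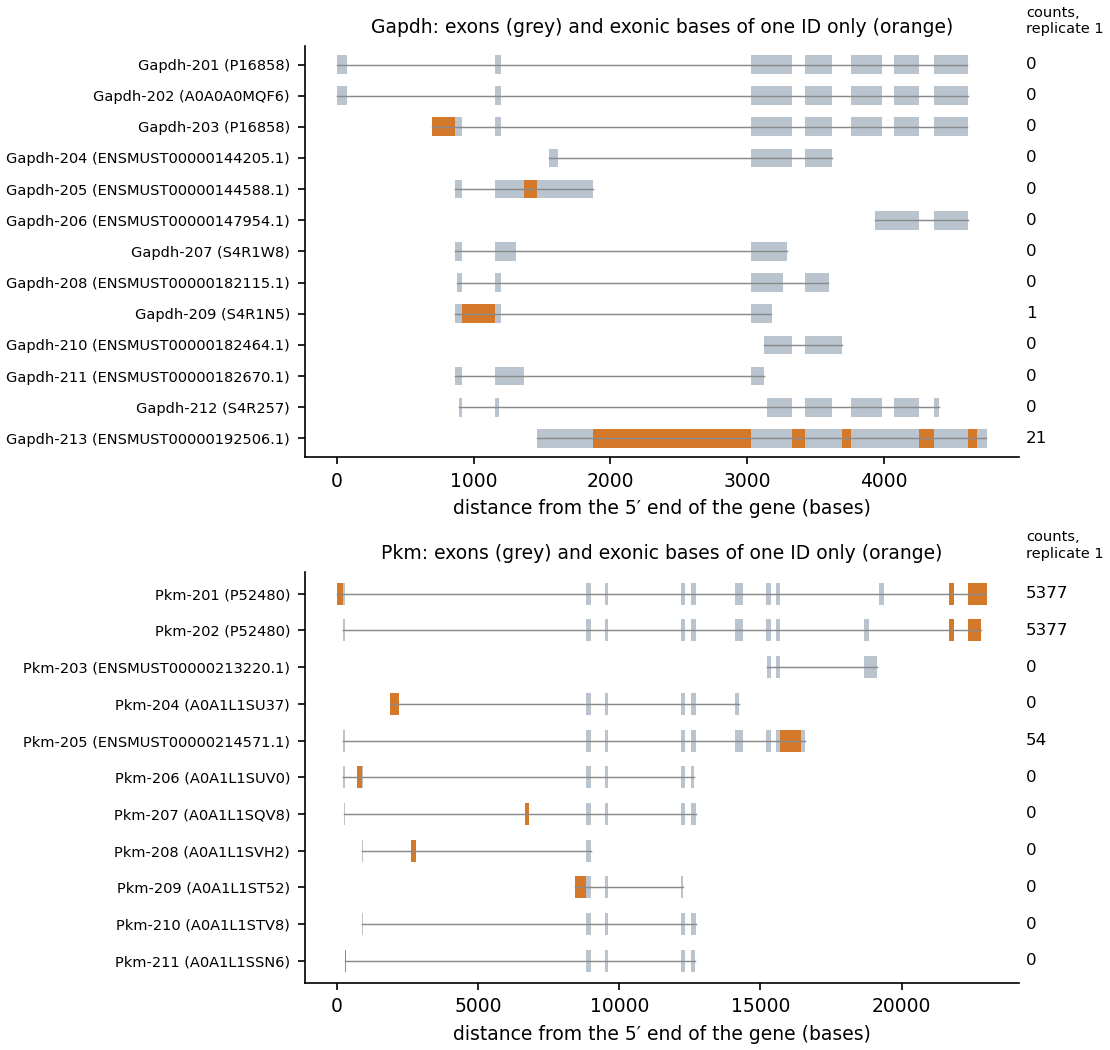
Annotated transcripts of Gapdh (top) and Pkm (bottom), with the ID of each in brackets, drawn by distance in bases from the 5′ end of the gene. Grey boxes are exons, orange boxes are exonic bases held by 1 ID only, and the number at the right is the ID's count in replicate 1, shown on both transcripts where an ID stands for a pair of them. Gapdh-201, Gapdh-202 and Gapdh-203 hold little or no orange and 0 counts, while P52480 of Pkm holds orange exons near its 3′ end and 5377 counts.

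Counts of the members fell where an ID had sequence of its own. Of 85 IDs placed in a single member, 20 had no such base and held 0 counts. The 15 IDs with a count in replicate 1 had longest own runs of 157 to 2067 bases. None of the 39 IDs whose longest own run was under 100 bases held a count, against 15 of 46 with 100 or more, a split chosen after the values were seen. Across the file the same held nearly throughout: of 10320 annotated Ensembl IDs without a base of their own, 3 held a count in replicate 1 (0.0291%), of 10735 with own runs under 100 bases 289 did (2.69%), and of 54137 with an own run of 100 bases or more, 6287 did (11.6%). Not every ID with own sequence held a count. Hk1-214, with an own run of 2192 bases, held 0. By kind, 29 retained-intron IDs held 130 counts of the members in replicate 1, all those on Ensembl IDs, and 7 of 48 accessions held 6123.

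**Figure D3:**
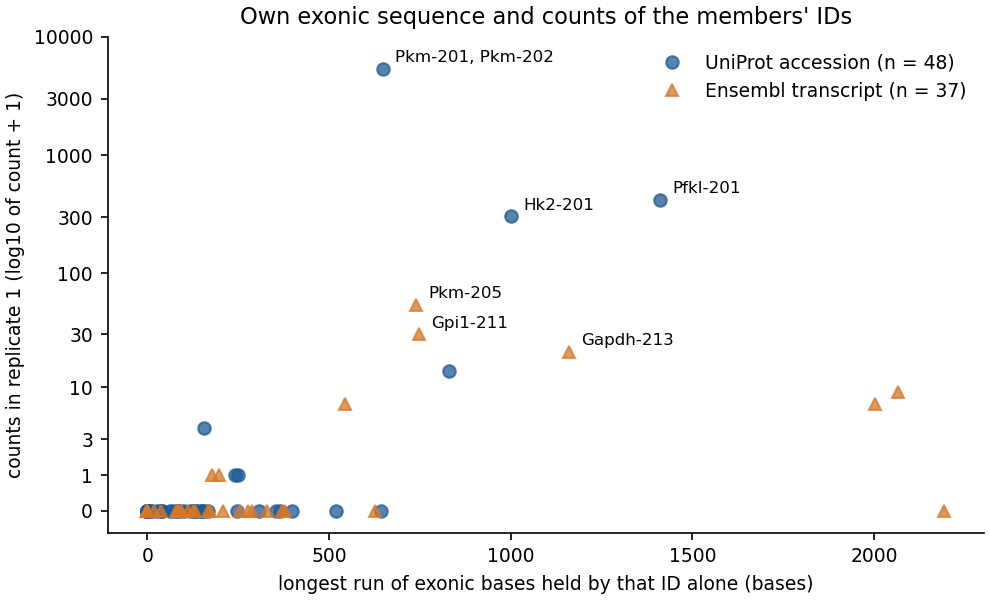
Counts in replicate 1 (y axis, log10 of the count plus 1) against the longest run of exonic bases that an ID holds alone (x axis, bases), for the 48 accessions (circles) and 37 Ensembl transcripts (triangles) placed in a single member, with IDs of 20 or more counts named by their transcripts. Every ID above 0 has a run of at least 157 bases, and IDs with long runs and 0 counts lie along the bottom.

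The share of exonic bases in 1 transcript did not set the members apart from other genes: its median was 46.6% over the 10 and 51.1% over all protein-coding genes (quartiles 25.9% and 78.8%). Levels of different genes were compared per kilobase of such bases, in CPM per kilobase in replicate 1, with counting intervals. Pkm stood at 1538 (1498 to 1580), Hk2 at 74.7 (66.7 to 83.5) and Pfkl at 53.5 (48.6 to 58.8), and their intervals did not overlap. Hk2 came before Pfkl on this scale and after it when all exonic bases, or no length, were used. The order of these 2 genes thus depends on the length chosen, which the intervals do not cover. The length also takes in bases of IDs with few or no counts, such as 2003 own bases of Pfkl-208, which held 7 counts. P12382 of Pfkl held 422 counts on 2522 own bases, and O08528 of Hk2 held 304 on 2228. P52480 stands for Pkm-201 and Pkm-202, whose shared bases are not bases of 1 transcript. Per kilobase of bases held by 1 ID, Pkm stood at 1204 CPM in replicate 1. Gpi1 at 8.61 (6.58 to 11.3), Gapdh at 7.25 (4.79 to 11.0) and Tpi1 at 5.65 (3.15 to 10.1) overlapped and had no order beyond counting error. Aldoa (0.692), Eno1 (0.184) and Hk1 (0.172) rested on 1 count each. In replicate 2 the intervals of Pkm (18.9 to 251.8), Hk2 (5.29 to 169.6) and Pfkl (2.68 to 86.1) all overlapped.

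Sequence that members share with other loci was then counted, in stretches of 31 bases on either strand over 141767 annotated transcripts. Hk1 shared none with a gene elsewhere, Hk2 shared 0.235% of its stretches and Pfkl 0.463%, while Tpi1 shared 9.89%, Gpi1 14.2%, Aldoa 17.0%, Pkm 22.9%, Gapdh 27.2%, Eno1 28.5% and Pgk1 54.7%. For Hk2, Gpi1 and Pfkl the transcripts with most counts among the sharers had 1 to 33 such stretches in common. They were Spop, Zbtb20 and Dusp18 for Hk2, Atp5g1, Hnrnph2 and Uba1 for Gpi1, and Ctsl, Atp5g1 and Arcn1 for Pfkl. For Aldoa, Tpi1, Gapdh, Pgk1, Eno1 and Pkm the sharers with most counts were processed pseudogenes, apart from Aldoart2 (2 counts in replicate 1, shared with Aldoa), Sf3b5 (495, in 4 stretches shared with Eno1) and the Eno1b accession.

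Pseudogenes with at least 100 of these stretches in common with a member are called copies here, a limit set after the values were seen. They had 147 transcripts from 142 pseudogenes, each transcript with an Ensembl ID of its own, so their counts do not rest on inferred accessions. They held 9792 counts in replicate 1 (0.645% of the library, 0.633% to 0.658%), more than the 6253 on the genes themselves, and 32 in replicate 2 (0.257%, 0.182% to 0.363%), where the genes held 4. In replicate 1, 76 of the 147 transcripts (51.7%) had at least 3 counts, beside 8.80% of all 14370 pseudogene transcripts. In 133 of the 147 transcripts every exonic base belonged to no other transcript.

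Gapdh had 130 of these transcripts, from 125 pseudogenes, and they held 8802 counts in replicate 1 and 29 in replicate 2, where Gapdh held 22 and 0. Gm13394 (ENSMUST00000121658.1, chromosome 2, 28933610 to 28934609) alone held 6862, which is 0.452% of replicate 1 (0.442% to 0.463%) and rank 13 among all 129311 IDs, and 0 in replicate 2. Gm3272 (chromosome 8, 92715747 to 92716975) held 447 and Gm14760 (chromosome X, 80193854 to 80194852) held 137. Gm14760 also differed from Gapdh-201 at 1 base, over 999 bases, yet held 137 counts to the 6862 of Gm13394. In replicate 1 the summed counts rose across classes of copies with more Gapdh sequence. The 20 transcripts with 75% or more of their stretches found in Gapdh each had at least 3 counts. They held 8228 in all, 6862 of them on Gm13394, while the 42 under 25% held 29 in all and at most 2 each. Within the class of 75% or more the order did not hold. Gm10359 and Gm12671, at 100% and named after their values were seen, held 37 and 23, and Gm3272, at 86.4%, held 447. The counts in replicate 2 did not follow the order of the classes. There the transcripts under 25% held 10 counts, 7 of them on Gm9568 (named after its value was seen), those from 25% to 50% held 3, those from 50% to 75% held 5 and those of 75% or more held 11. These are values across loci that share their library and their sequence, not independent replicates.

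**Figure D4:**
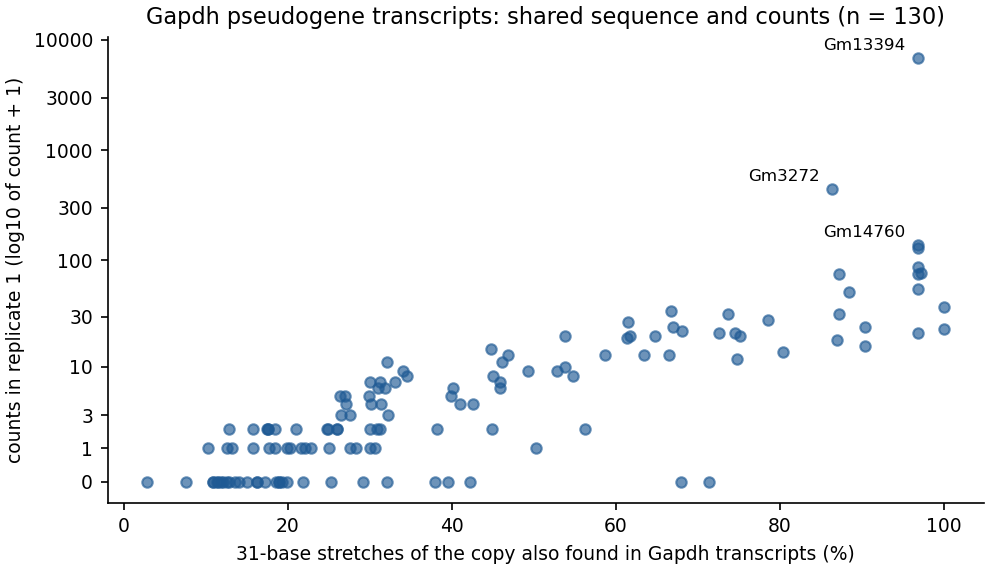
Counts in replicate 1 (y axis, log10 of the count plus 1) of the 130 transcripts of pseudogene copies of Gapdh against the percent of their 31-base stretches that also occur in Gapdh transcripts (x axis), with the 3 of most counts named. Transcripts under 25% have at most 2 counts, and Gm13394 at 96.8% has 6862.

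The other members with copies differed in which side held more counts. Eno1 had 4 copies with 480 counts in replicate 1, of which Gm4735 (chromosome 2, 80837141 to 80838442) held 462, beside 1 on Eno1. Pgk1 had 4 copies with 27 counts, beside 0 on Pgk1, and its leading copies, Pgk1-rs7 (17 counts, chromosome 12, 10898986 to 10900240) and Gm5537 (7 counts), matched Pgk1-201 over their whole length with 0 mismatches. Tpi1 had 2 copies, Tpi-rs11 with 43 counts and AC132091.1 with 3, beside 11 on Tpi1. Gpi1 had 1, Gm1840 with 104 counts in replicate 1 and 2 in replicate 2, named after its value was seen, beside 53 and 0 on Gpi1. Aldoa had 1, Gm5276, with 3 counts in replicate 1 and 1 in replicate 2. Pkm went the other way: its 5 copies held 330 counts, 311 of them on Gm6560 and 18 on Gm6992, beside 5431 on Pkm. Hk1, Hk2 and Pfkl had no copy. All copies of Eno1, Pgk1, Tpi1 and Pkm were at 0 in replicate 2. Which locus the reads came from was not tested, since the counts hold no read sequence.

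**Figure D5:**
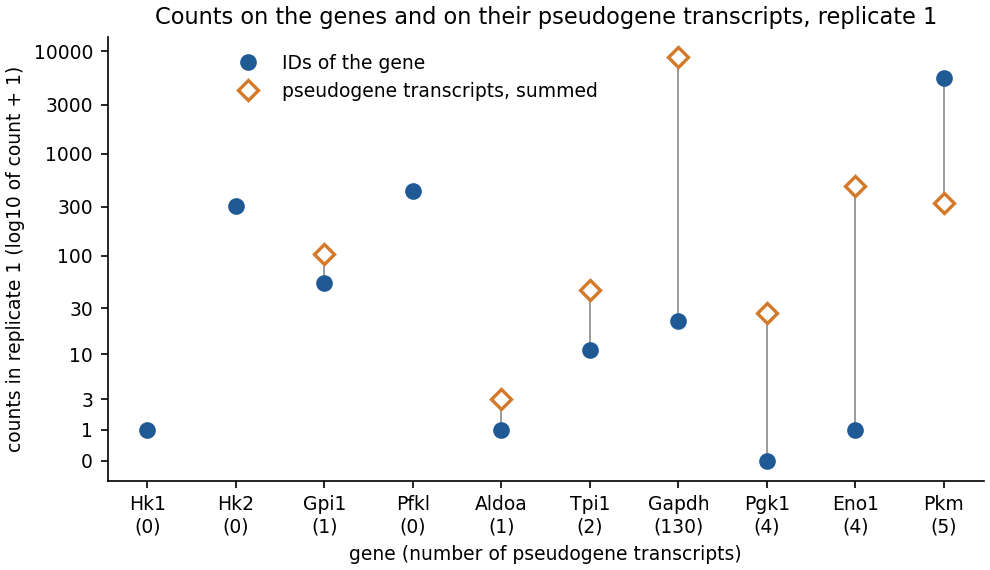
Counts in replicate 1 (y axis, log10 of the count plus 1) on the IDs of each gene (filled circles) and summed over the transcripts of its pseudogene copies (open diamonds), with the number of those transcripts in brackets under each gene. The copies lie above the gene for Gpi1, Aldoa, Tpi1, Gapdh, Pgk1 and Eno1 and below it for Pkm, and Hk1, Hk2 and Pfkl have no copy.

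Other genes of the pathway were counted by the same sums per gene. Of all protein-coding genes 31.9% reached 3 counts in replicate 1 and 3.73% in replicate 2. Of 15 isozymes and enzymes of other steps, 6 had at least 3 counts in replicate 1 and 0 in replicate 2. Pgam1, the phosphoglycerate mutase that acts between Pgk1 and Eno1, held 1424 counts and 0, and 1259 of its 1982 exonic bases belonged to 1 ID. Pfkp and Pfkm, the platelet and muscle forms of phosphofructokinase, held 71 and 27. Gapdhs, the sperm form of Gapdh, held 21, Eno2, the neuronal enolase, 10, and Eno3, the muscle enolase, 8. Of these, Pfkp also held 2 counts in replicate 2 and Eno3 held 1.

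In replicate 1, where 31.9% of protein-coding genes reached 3 counts, 2 of 8 genes of glucose and lactate transport and lactate dehydrogenase did. The 2 were Slc16a1, a lactate and pyruvate transporter, with 446 and Slc2a1, the glucose transporter GLUT1, with 4. Ldha, which makes lactate from pyruvate and is named after its value was seen, held 1 count. Of its 3310 exonic bases, 1365 belonged to 1 ID. Pseudogene copies were sought for the members only, not for Ldha. Of 15 regulators and genes of pyruvate entry to mitochondria, 10 reached 3 counts in replicate 1, beside the same 31.9%. Dlat (535), Pdha1 (244) and Pdhb (61) encode subunits of the pyruvate dehydrogenase complex, and Pdk3 (284), Pdk1 (15) and Pdk4 (3) encode the kinases that inhibit it. Mpc2, a subunit of the mitochondrial pyruvate carrier, held 50. Bpgm (35), Tigar (26) and Pfkfb3 (12) set the levels of bisphosphate regulators. In replicate 2 none of these lists had a gene with 3 counts, and their sums were 3, 1 and 2.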

How the data were processed

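RNA-seq counts of 2 libraries of differentiated FGSCs were analysed, 1 group with no second condition. The authors deposited whole-number read counts per ID, not normalized. The submitters' processing notes name FastQC, Trim Galore, HISAT2 2.2.1, featureCounts and mm10, whereas the paper's methods name TopHat and Cufflinks, and the annotation and the counting settings are not given in the sources used here. How reads matching several places were treated is therefore unknown, and a table per transcript can leave reads on shared exons uncounted.

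Of 129311 IDs, 76066 were Ensembl transcripts, 75192 of them in GENCODE M21 (GRCm38), and 53245 were UniProt accessions. No table pairing accessions with genes was used. An accession was placed among annotated coding transcripts between its neighbours in the coordinate-ordered file, with identical translations taken as 1 accession, so that its gene is inferred. This put 49876 accessions (93.7%) in a single gene. An accession could also be given several transcripts of 1 gene with unlike coding sequence, as P52480 was given Pkm-201 and Pkm-202. All 17 of 21 reviewed accessions found in the files had their known gene among the candidates, 14 as the only one, and the other 3 were settled by it. As a check, 50% and 80% of the Ensembl names were hidden, and 16864 of 30077 and 13653 of 48123 hidden IDs were placed in a single gene. Of the IDs so placed, 99.7% and 99.6% were in the right gene. The check scored Ensembl transcripts, not accessions, and did not include the step that settled 3 reviewed accessions. Its rates may therefore not hold for accessions. It scored the gene only, so which transcripts an accession stands for was not checked. Single-gene IDs held 93.2% and 96.2% of the counts of the libraries, and accessions 86.1% and 48.8%.

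Counts were summed per gene, and 3 counts was the smallest level taken as shown. Shares have 95% Wilson intervals. Exonic bases of 1 transcript or 1 ID were counted in the annotation over all overlapping transcripts. No test was run, since both libraries are of 1 group. All 10 members were named, with other pathway genes of at least 3 counts (at most 12 a list) and at most 3 sharers of a 31-base stretch per member. The members and lists were chosen with earlier results of these data known, and the analysis of copies was added after the counts were seen. Python 3.11.15, numpy 2.4.6, scipy 1.17.1 and matplotlib 3.10.9 were used.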

Additional observations from a re-analysis of the deposited data

Results flagged for a closer look

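Counts outside the summed IDs of the members had no control samples to be set against. Those above 3 counts were found at 2 kinds of place. The first is pseudogenes elsewhere in the genome. In replicate 1 the copies of Gapdh held 8802 counts, those of Eno1 480, those of Pkm 330, those of Gpi1 104, those of Tpi1 46 and those of Pgk1 27. In replicate 2 the copies of Gapdh held 29. The second is IDs at or shared with a member's locus. The accession that Eno1 and Eno1b share held 290 counts in replicate 1, Gm49759, an unclassified transcript inside Pkm (ENSMUST00000214037.1), held 88, and a retained-intron transcript of Iffo1 next to Gapdh held 11. Whether these reads came from the members was not tested.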

How the results depend on the processing

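No paired analysis was possible because the 2 replicate numbers mark libraries of the same group. Replicate 2 had no member with 3 counts but 3 with 1 count; minimums of 1 or 10 counts and the highest ID per gene moved no other number of detected members by more than 1.5 times. Without mitochondrial IDs in the total the share of replicate 1 was 0.468%, and with counts of the shared Eno1 accession it was 0.431%, with Eno1 at 291. With Ensembl IDs only, the shares were 0.00857% and 0%, and in replicate 1 Hk1 and Hk2 fell to 0, Gpi1 to 39, Pfkl to 7 and Pkm to 54, in replicate 2 Hk2, Pfkl and Pkm to 0: nearly all counts of the members rest on inferred accessions. With the counts of copies added, an alternative chosen after seeing the data, 9 members reached 3 counts in replicate 1 (6 as reported, 5 with Ensembl IDs only) and 1 in replicate 2, the shares were 1.06% and 0.289% (mean 0.673%), and Gpi1 stood at 157, Tpi1 at 57, Gapdh at 8824, Pgk1 at 27, Eno1 at 481 and Pkm at 5761 in replicate 1 and Gapdh at 29 in replicate 2. The mean share ranged from 0.0321% to 0.412% when 1 library was left out. The order per kilobase had 2 members in another place (Hk2 and Pfkl, exchanged) with all exonic bases and 2 with no length, and none with bases of 1 ID. At 12442 counts, replicate 2 limits every value per gene.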
